A study of Schizosaccharomyces pombe with 10 samples.

Results

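The 53 genes described here were higher after hydrogen peroxide in wild-type fission yeast but not in a strain whose Atf1 carries phosphomimicking changes. They are 53 of 7017 genes in the count table. They were chosen by the measured response itself. CPM is a gene's count divided by the total of its library and scaled to counts per 1000000, and R is the log2 ratio of treated to untreated level after 1 CPM is added to each. Members had a mean of at least 10 CPM over the 10 libraries, an R of at least 1.5 in wild type and an R of at most 0.3 in the phosphomimic strain. Of 4985 genes with that mean, 1.3% (65 genes) met both thresholds, against 4.31% for the wild-type threshold and 76.5% for the phosphomimic threshold. From the 65, 3 noncoding RNAs and 9 well-known stress genes named in the selection rule (10 were named, and 1 missed a threshold) were left out. Every value of wild type and of the phosphomimic strain below is therefore a description and no test was run on it.

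The series measured polyA-enriched RNA from exponential cultures of Schizosaccharomyces pombe in minimal medium, either untreated or exposed for 15 min to 1 mM H2O2. Of the 5 strains, WT is wild type, and the other 4 are labelled as deletions of sty1. STY carries the deletion alone, with wild-type Atf1. HA adds HA-tagged Atf1 of wild-type sequence, 10D adds HA-Atf1.10D, the phosphomimicking form, and 10M adds HA-Atf1.10M, the unphosphorylatable form. The promoter that drives the tagged alleles is not given in the sources used here. Each strain and treatment has 1 library, so no strain was replicated, and nothing says that a strain was more than 1 clone.

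Library totals were 9178795 to 26503471 counts, with the greatest depth in 10D and 10M. Batches are not named in the labels, so any batch that followed strain cannot be told apart from it. A count of 0 allowed up to 3 counts, or 0.113 to 0.327 CPM, which covers counting error only. The sty1 transcript was at 295 and 300.1 CPM without and with H2O2 in WT, and at 9.13 and 8.38 CPM in STY. It stood at 102 to 127 CPM in the 6 libraries labelled HA, 10D and 10M, above STY although these strains are labelled as deletions too. A count per gene does not show which part of the gene was read. The source of these sty1 counts was not tested, so they do not settle whether the gene is intact. In what follows HA, 10D and 10M mean the libraries labelled so. Their untreated atf1 transcript also differed from WT, at 506 CPM in 10D, 569 in HA and 388 in 10M, against 158 in WT and 70.9 in STY. After H2O2 atf1 was at 632 CPM in WT, 699 in 10D, 611 in HA, 417 in 10M and 27.9 in STY. The part of atf1 level in the results below was not tested and cannot be told apart from the form of Atf1. CPM is a share of a library, so a change in total RNA per cell is not seen in it.

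As background, Sty1 is the stress-activated MAP kinase of fission yeast. A phosphorelay that senses peroxide and a MAP kinase cascade activate it, and it phosphorylates the bZIP transcription factor Atf1. Atf1 binds DNA with its partner Pcr1 at sites related to the cAMP response element (CRE), whose core reads TGACGT, and many genes of the general stress response carry such sites. Pap1, a different bZIP factor, serves a separate set of antioxidant genes.

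A CRE-type core lay close to the start of many members. The 6-base sequence TGACGT, read on either strand in the 250 bases before the annotated gene start, was found in 23 of the 52 protein-coding members (44.2%). The same search found it in 253 of 4678 protein-coding genes at or above the same mean of 10 CPM (5.41%). Among the 72 protein-coding genes with an R of at least 1.5 in both WT and 10D, it was in 4 (5.56%). Within the 250 bases, the bin from 51 to 75 bases before the start held a core in 15 members, or 28.8%, against 1.5% of all those genes. The nearest core lay 18 to 157 bases before the start, with a median of 66 bases, and 5 members had more than 1 match. In smp4 (71 and 69 bases) and mvp1 (68 and 66) the matches overlap, as 1 palindrome read on both strands. Separate cores were in srk1, mug143 and SPAC32A11.02c. The full palindrome TGACGTCA, which contains the core, was in 2 members (3.85%, against 0.278%). The related sequence TTACGT was in 18 members (34.6%), in 12.7% of all and in 26.4% of the genes induced in both strains, and overlapped a TGACGT core in 6 members. Another motif, CCCCT, was about as frequent in the members (7.69%) as in all genes (8.14%). A match is a run of letters, not a measured binding site, and 29 protein-coding members had no core in this window.

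**Figure D1:**
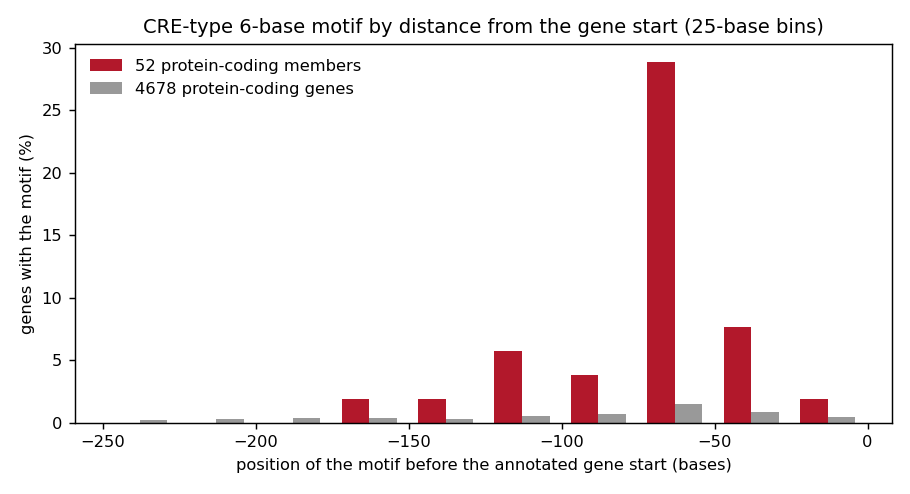
Percentage of genes with a TGACGT core, on either strand, in each 25-base bin before the annotated gene start, for the 52 protein-coding members (red) and for 4678 protein-coding genes at or above the same mean of 10 CPM (grey). The bin from 51 to 75 bases stands out, with 28.8% of members against 1.5% of all genes.

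The cores nearest the start are shown for 11 members whose levels are given below, because the core was more frequent in the members than in all genes. They are examples from the 23 members that hold it. Each line gives 30 bases on the strand of the gene, 5′ to 3′, from RefSeq assembly ASM294v3, with the core in capitals. A core on the other strand reads ACGTCA. The build that the authors counted against is not given in the sources used here, so these gene starts may not be the ones they used.
ptc1 (chrIII:2004477-2004506, plus strand): gtataccacgcgTGACGTaaatgcccgagt
cgs1 (chrI:3642954-3642983, plus strand): tagtacattttaTGACGTatgagtgagcta
git5 (chrII:1463772-1463801, plus strand): ttacgatgaggaTGACGTattccatatgtt
ght2 (chrII:3427015-3427044, plus strand): cttgtaatattgTGACGTataaccaaaaac
gut2 (chrIII:1843309-1843338, minus strand): gaaacaaacccaACGTCActgttgacatgt
SPBC725.03 (chrII:1206960-1206989, plus strand): tagcaaagtcaaTGACGTttcagtcaaaca
ish1 (chrII:2518771-2518800, minus strand): tcgagggagtttACGTCAgttagattatct
wwm3 (chrII:202197-202226, plus strand): tccccacaaaagTGACGTattgtccgtcgg
rds1 (chrI:1667623-1667652, plus strand): gtaccaagtcacACGTCAagctgagaccga
tsp0 (chrII:1224487-1224516, plus strand): ccttcccttctgTGACGTaatagacgaggt
smp4 (chrIII:955149-955178, plus strand): catcatatgtTGACGTCAtttacggtatgt

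In these lines the core begins 47 bases before the start of ptc1, 63 before cgs1, 65 before git5 and 133 before ght2. The line for smp4 holds the palindrome. The windows of ish1 and rds1 overlap another annotated coding gene. The stress kinase gene srk1 had 3 cores, at 114, 56 and 37 bases before its start, and 100 bases of its upstream region are shown with all of them in capitals.
srk1 (chrIII:1301813-1301912, plus strand): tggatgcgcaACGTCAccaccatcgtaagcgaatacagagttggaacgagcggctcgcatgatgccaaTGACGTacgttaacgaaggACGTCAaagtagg

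In WT the members were higher after H2O2, as the rule requires, with R from 1.55 to 5.78 and a median of 2.09 (median over all 4985 genes −0.23). In 10D many were lower after H2O2. Their R ran from −5.28 to 0.28, with a median of −0.81, and 24 of 53 were at least 2-fold lower after H2O2 (R of −1 or less, background 7.44%). The rule set the upper end of that range and not the lower one, but the contrast is the one that chose the members, so nothing is read from it.

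Before any treatment, members were already high in the library labelled 10D. The log2 ratio of untreated 10D to untreated WT had a median of 1.42 over the 53 members and −0.14 over all 4985 genes. Of the members, 33 were at least 2-fold higher in untreated 10D than in untreated WT (background 3.39%), and 50 had their highest untreated level in 10D (background 17.4%). The resting 10D level fell short of the induced WT level in most cases. Untreated 10D over treated WT had a median log2 ratio of −0.97, and untreated 10D was above treated WT for 12 members (background 55.1%). It was at least 2-fold above for 4 members (background 8.37%) and at least 2-fold below for 23 (background 9.43%). After treatment the median log2 ratio of 10D to WT was −1.51, and 38 members were at least 2-fold higher in treated WT (background 4.09%). Treated WT was the highest of the 5 treated libraries for 48 members (background 30.1%). Untreated 10D is the denominator of the response that was selected to be small, so a high resting level was favoured by the choice of members. Treated WT is the numerator of the response selected to be large, and treated 10D of the one selected to be small. High treated WT and low treated 10D levels were favoured as well, so nothing is read from these counts.

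**Figure D2:**
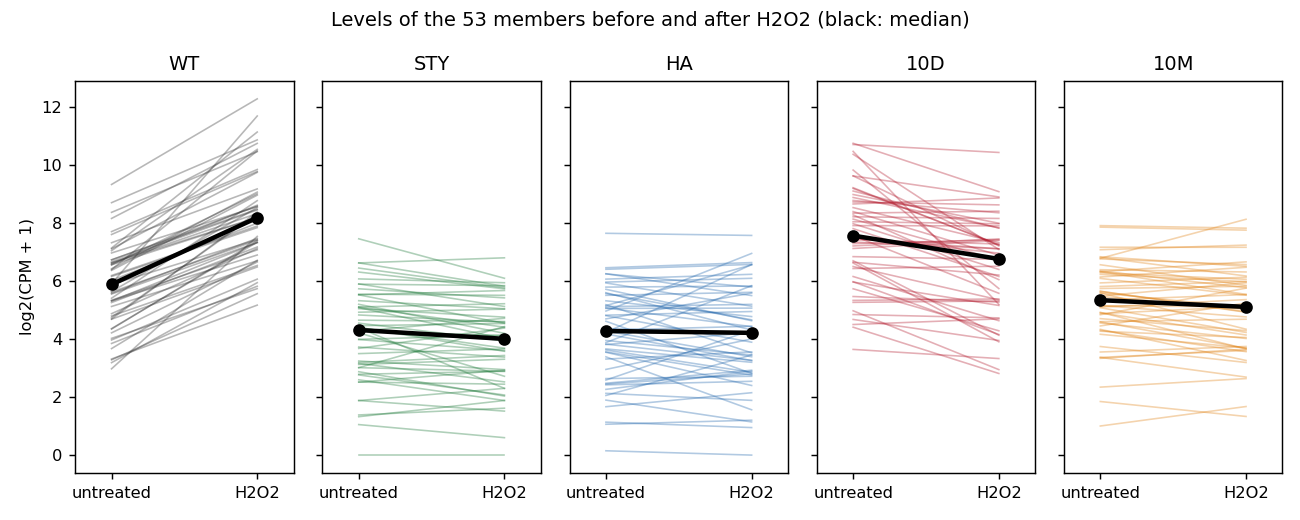
Level of each of the 53 members in the 10 libraries, as log2(CPM + 1), with untreated and treated libraries of a strain joined by a line and the median in black. Lines climb in WT, start high and fall or stay level in 10D, and start lower in STY, HA and 10M with medians that change little. The climb in WT and its absence in 10D were set by the choice of members, which also favoured a high start in 10D.

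The signalling members include parts of the Sty1 pathway itself. The kinase gene srk1 encodes a MAP kinase-activated protein kinase that Sty1 phosphorylates and that delays entry into mitosis. From untreated to treated libraries, the order kept for every gene below, its level went from 81.8 to 499 CPM in WT, from 29.4 to 31.7 in STY, from 32.4 to 32.6 in HA, from 224 to 70.5 in 10D and from 83.1 to 78.7 in 10M. Treated WT and untreated 10D were its highest libraries, and the 10D level after H2O2 was below that of untreated WT. The counts alone gave a log2 ratio in WT of 2.61 (exact binomial 95% interval 2.499 to 2.72) and in 10D of −1.67 (−1.75 to −1.59). Such intervals cover counting error only and say nothing of the spread between cultures.

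The phosphatase gene ptc1 encodes a PP2C enzyme that removes activating phosphate from Sty1. It went from 97.9 to 321 CPM in WT, from 45.1 to 22.3 in STY, from 51.6 to 23.8 in HA, from 156 to 171 in 10D and from 93.7 to 56.8 in 10M. Both 10D libraries lay between untreated and treated WT, and in STY, HA and 10M the treated library was the lower one. The gene mpr1 encodes the histidine-containing phosphotransfer protein that passes the peroxide signal towards the cascade, and it went from 176 to 138 CPM in 10D, from 93.6 to 291 in WT, from 80.6 to 53.7 in 10M, from 39.0 to 26.4 in HA and from 33.5 to 20.3 in STY. Its order across untreated libraries was 10D, WT, 10M, HA and STY. The kinase gene ppk15 went from 97.9 to 292 CPM in WT, from 58.5 to 56.5 in STY, from 54.5 to 55.9 in HA, from 147 to 174 in 10D and from 79.3 to 100.4 in 10M. Outside WT its R ran from −0.051 to 0.34.

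**Figure D3:**
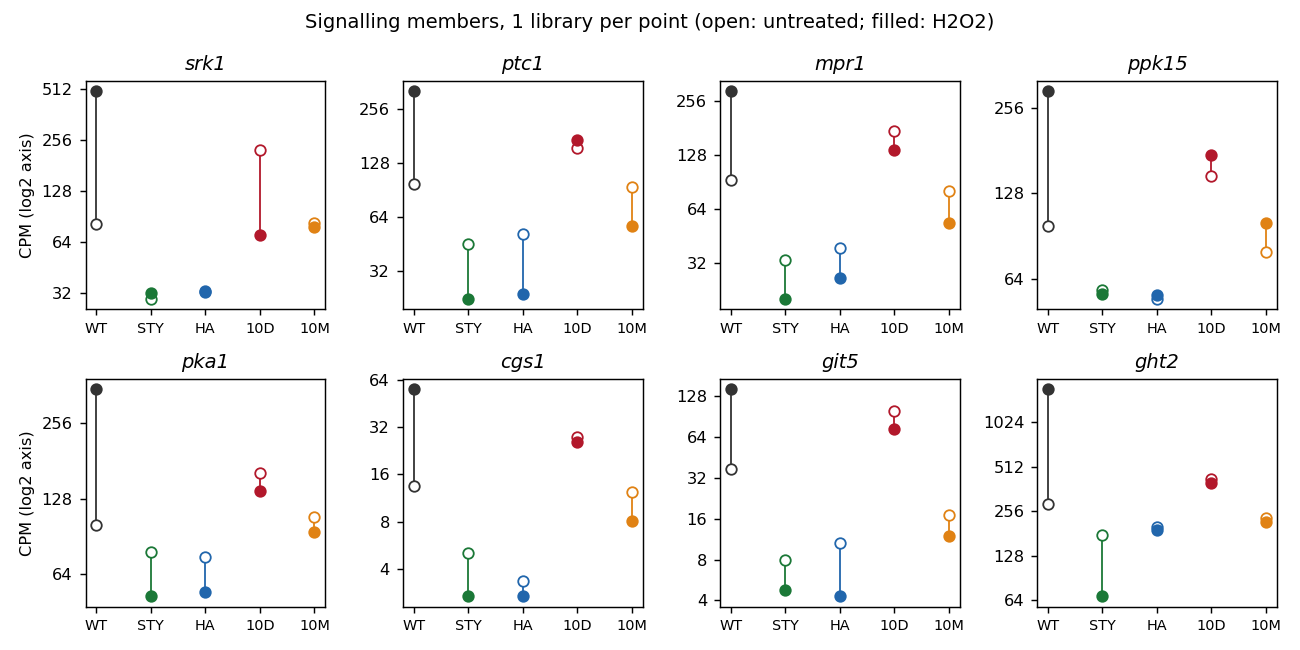
Level in CPM, on a log2 axis, of 4 signalling members (srk1, ptc1, mpr1, ppk15) and 4 members of glucose and cAMP signalling or hexose uptake (pka1, cgs1, git5, ght2), with 1 library per point, open for untreated and filled for H2O2. For all 8 the highest point is treated WT, and untreated 10D lies above untreated WT. Both were favoured by the choice of members.

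Members of the cAMP pathway, which reports glucose to the cell, are named here after their values were seen. The gene pka1 encodes the catalytic subunit of the cAMP-dependent protein kinase, cgs1 its inhibitory regulatory subunit and git5 the beta subunit of the G protein that acts upstream of adenylate cyclase. The pka1 transcript went from 101 to 349.9 CPM in WT, from 78.5 to 52.2 in STY, from 75.1 to 54.5 in HA, from 162 to 138 in 10D and from 108 to 94.1 in 10M. The cgs1 transcript went from 27.8 to 25.6 CPM in 10D, from 13.4 to 55.6 in WT, from 12.4 to 8.16 in 10M, from 3.38 to 2.70 in HA and from 5.05 to 2.69 in STY. For git5 the values went from 37.3 to 144 CPM in WT, from 7.95 to 4.76 in STY, from 10.7 to 4.28 in HA, from 99.6 to 73.0 in 10D and from 17.0 to 11.98 in 10M. Treated WT was the highest library for each of these genes, as it was among treated libraries for 48 of all 53 members. The choice of members favoured a high treated WT level. The treated libraries of STY, HA and 10M were lower than their untreated partners. In the edgeR test of the response shared by these strains, given below, pka1 (adjusted p = 0.0815), cgs1 (0.149) and git5 (0.0562) did not pass. The hexose transporter gene ght2 went from 285 to 1722 CPM in WT, from 175 to 67.5 in STY, from 199.8 to 189.8 in HA, from 424 to 395 in 10D and from 232 to 216 in 10M, and its untreated 10D level exceeded untreated WT by 1.48-fold.

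Among 12 enzymes, 10 were at least 2-fold higher in untreated 10D than in untreated WT and 8 were at least 2-fold lower in 10D after H2O2. Over all 53 members these counts were 33 and 24, and over all genes the shares were 3.39% and 7.44%. Both measures use values that chose the members, so nothing is read from them. The lowest R in 10D was that of SPACUNK4.17, annotated as an NAD-binding dehydrogenase, which went from 83.3 to 1438 CPM in WT, from 8.49 to 6.72 in STY, from 4.36 to 4.84 in HA, from 1422 to 35.7 in 10D and from 25.1 to 18.6 in 10M. Untreated 10D matched treated WT for this gene, at 98.9% of its level, and treated 10D was 39.8-fold lower than untreated 10D. The phosphoketolase-family gene SPBC24C6.09c went from 337 to 118 CPM in 10D, from 24.9 to 333 in WT, from 10.8 to 12.4 in 10M, from 4.58 to 6.61 in HA and from 7.09 to 6.41 in STY, with untreated 10D again at the level of treated WT.

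The glycerol-3-phosphate dehydrogenase gene gut2 went from 41.5 to 437 CPM in WT, from 4.73 to 6.62 in STY, from 3.16 to 9.96 in HA, from 189 to 46.9 in 10D and from 23.3 to 24.7 in 10M. The gene SPAC22F8.05, annotated as a trehalose-phosphate synthase, went from 586 to 151 CPM in 10D, from 137 to 861 in WT, from 47.3 to 33.0 in 10M, from 11.7 to 8.19 in HA and from 7.73 to 8.89 in STY. Both had an untreated 10D level above untreated WT and under treated WT, and a treated 10D level close to untreated WT. A different pattern held for SPAC4H3.03c, annotated as a glucan 1,4-alpha-glucosidase, which went from 19.3 to 168 CPM in WT, from 1.61 to 2.07 in STY, from 1.09 to 1.30 in HA, from 20.3 to 6.04 in 10D and from 22.5 to 15.2 in 10M. Its untreated level was alike in WT, 10D and 10M and far lower in STY and HA.

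The enolase gene eno102, a second enolase locus beside the main glycolytic one, went from 11.8 to 104 CPM in WT, from 0 to 0 in STY, from 0.109 to 0 in HA, from 171 to 155 in 10D and from 1.00 to 2.19 in 10M. Both 10D libraries were above treated WT, and both STY libraries had 0 counts, which allows a level up to 0.322 CPM untreated and 0.310 CPM treated. The oxidase gene SPBC725.03, annotated for pyridoxamine 5′-phosphate, went from 25.9 to 319 CPM in WT, from 20.0 to 3.93 in STY, from 23.5 to 6.05 in HA, from 114 to 107 in 10D and from 29.4 to 11.6 in 10M. Treated libraries were higher than untreated ones in WT, about level in 10D and lower in the remaining strains. SPACUNK4.15, annotated as a cyclic-nucleotide phosphodiesterase of RNA ends, went from 89.8 to 39.9 CPM in 10D, from 58.2 to 172 in WT, from 52.7 to 55.6 in 10M, from 8.93 to 10.8 in HA and from 10.3 to 11.7 in STY. The other enzymes were ssd2, SPAC13C5.04, SPAC23C11.06c and the glutathione S-transferase gene gst3, with R in WT from 1.78 to 2.76 and in 10D from −1.82 to −0.057.

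The membrane and transport members include eis1 and fhn1, genes of eisosomes, the furrows of the plasma membrane. The eis1 transcript went from 416 to 1872 CPM in WT, from 86.5 to 53.6 in STY, from 75.4 to 44.3 in HA, from 790.3 to 478 in 10D and from 240.3 to 226 in 10M. From highest to lowest, its untreated levels stood in the order 10D, WT, 10M, STY and HA. The tricalbin gene tcb2, whose product tethers the endoplasmic reticulum to the plasma membrane, went from 252 to 83.6 CPM in 10D, from 93.2 to 515 in WT, from 47.3 to 19.3 in 10M, from 47.5 to 18.9 in HA and from 58.9 to 33.9 in STY. After H2O2 it was below the untreated level in all 4 strains other than WT. The sorting nexin gene mvp1 went from 39.5 to 134 CPM in WT, from 12.24 to 9.41 in STY, from 13.2 to 8.65 in HA, from 43.3 to 37.8 in 10D and from 38.8 to 32.3 in 10M.

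The TspO-like gene tsp0 had the largest log2 difference of 10M over STY and HA among the members (tested below), and went from 95.6 to 392 CPM in WT, from 2.69 to 3.93 in STY, from 5.012 to 18.8 in HA, from 370.2 to 159 in 10D and from 69.6 to 88.1 in 10M. Untreated 10D was close to treated WT for tsp0, and untreated 10M was 69.6 CPM where STY had 2.69. The autophagy gene atg101, part of the complex that starts autophagosome formation, went from 21.7 to 24.9 CPM in 10D, from 15.3 to 52.5 in WT, from 20.9 to 37.0 in 10M, from 13.1 to 17.7 in HA and from 14.9 to 16.5 in STY. Outside treated WT it lay between 13.1 and 37.0 CPM. The phosphate transporter gene pho841, the eisosome gene fhn1, the channel-family gene SPAC977.17 and the transporter gene SPBC36.01c had R in WT from 1.86 to 2.099 and in 10D from −0.32 to 0.049.

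The other 24 members were placed in none of these groups, and include the gene with the highest R in WT, ddr48. The gene ddr48, named after a stress protein of budding yeast, went from 59.2 to 3314 CPM in WT, from 18.9 to 14.6 in STY, from 5.23 to 5.58 in HA, from 909.5 to 52.6 in 10D and from 18.3 to 15.6 in 10M. It was 56.0-fold above its untreated level in treated WT, was 15.4-fold higher in untreated 10D than in untreated WT, and was 17.3-fold lower in 10D after treatment. SPAC11D3.01c, a Con-6 family gene, went from 1326 to 135 CPM in 10D, from 26.8 to 92.1 in WT, from 27.7 to 53.1 in 10M, from 24.9 to 47.1 in HA and from 33.5 to 36.3 in STY. It had the highest ratio of untreated 10D to untreated WT of all members, 49.4-fold, while treated WT exceeded untreated WT by 3.43-fold. The uncharacterised gene SPAC15E1.02c went from 28.4 to 138 CPM in WT, from 5.91 to 6.41 in STY, from 3.81 to 6.42 in HA, from 551 to 226 in 10D and from 28.4 to 33.9 in 10M, with both 10D libraries above treated WT.

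The SBDS-family gene rtc3 went from 140.1 to 2259 CPM in WT, from 7.09 to 20.6 in STY, from 13.7 to 56.4 in HA, from 791 to 147 in 10D and from 43.8 to 60.5 in 10M. Treated HA, treated STY and treated 10M were also above their untreated partners, on a level far under treated WT. The gene rds1 went from 1726 to 543 CPM in 10D, from 644 to 4995 in WT, from 33.4 to 40.2 in 10M, from 17.8 to 94.3 in HA and from 24.2 to 23.4 in STY. Its R in HA, 2.34, was the highest of the members there. The nuclear envelope gene ish1 went from 131 to 1492 CPM in WT, from 52.3 to 41.9 in STY, from 60.2 to 34.2 in HA, from 439 to 327 in 10D and from 112 to 71.4 in 10M. Its untreated 10D level lay between the WT libraries, and its R in 10D was −0.43.

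The gene wwm3 went from 6.87 to 185 CPM in WT, from 1.504 to 2.69 in STY, from 2.18 to 3.44 in HA, from 30.5 to 6.72 in 10D and from 23.2 to 11.9 in 10M. Its untreated 10M level was close to that of untreated 10D, with STY and HA far lower. The gene smp4 went from 52.3 to 18.5 CPM in 10D, from 19.6 to 161 in WT, from 18.7 to 10.9 in 10M, from 10.8 to 5.77 in HA and from 5.80 to 3.21 in STY. It was high in treated WT and, to a lesser degree, in untreated 10D. The gene mug143 went from 17.6 to 100.03 CPM in WT, from 6.34 to 3.10 in STY, from 9.48 to 1.95 in HA, from 24.6 to 14.5 in 10D and from 19.2 to 8.61 in 10M, and overlaps 2 annotated coding genes. The gene mug147 went from 97.7 to 13.998 CPM in 10D, from 24.8 to 88.7 in WT, from 9.34 to 5.46 in 10M, from 2.72 to 1.21 in HA and from 2.69 to 1.86 in STY, with untreated 10D just above treated WT.

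A few more of these members are named by the tests below. SPAC9E9.04, of the bcap family, went from 194 to 879 CPM in WT, from 45.1 to 50.2 in STY, from 83.9 to 94.5 in HA, from 404 to 466 in 10D and from 143 to 143 in 10M. It was graded across untreated libraries, lowest in STY and highest in 10D. The gene tam11 went from 181 to 123.9 CPM in 10D, from 105.7 to 356 in WT, from 74.2 to 62.3 in 10M, from 44.6 to 48.0 in HA and from 21.1 to 22.2 in STY, in the same order. SPCC16A11.15c went from 33.9 to 103 CPM in WT, from 33.0 to 15.1 in STY, from 27.0 to 13.9 in HA, from 61.5 to 34.8 in 10D and from 32.9 to 17.8 in 10M, and the treated library was the lower one in every strain but WT. The remaining 11 members of this group, SPCC1393.12, SPAC637.03, prl65, SPBC11C11.06c, SPAC16A10.01, SPCC320.03, spg4, SPAC32A11.02c, SPBPB21E7.08, wwm2 and SPCC191.01, had R from 1.58 to 2.90 in WT and from −2.57 to 0.28 in 10D.

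In the strains that the rule did not use, STY, HA and 10M, the members' median response lay near 0. The median R was −0.28 in STY, 0.0093 in HA and −0.23 in 10M, against −0.18, −0.23 and −0.12 over all 4985 genes. At least 2-fold higher after H2O2 were 1 member in STY (rtc3, background 0.843%), 7 in HA (background 3.25%) and 1 in 10M (pho841, background 2.65%). At least 2-fold lower were 5, 6 and 3 (backgrounds 8.61%, 9.83% and 3.69%). The 7 in HA were rds1, pho841, rtc3, tsp0, SPBPB21E7.08, gut2 and SPAC16A10.01, and the other counts lie near the background. Scaling by TMM factors instead of library totals raised the median R of all genes by up to the amount seen in WT, from −0.23 to −0.065, and the member medians then became −0.13, 0.15 and −0.18.

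**Figure D4:**
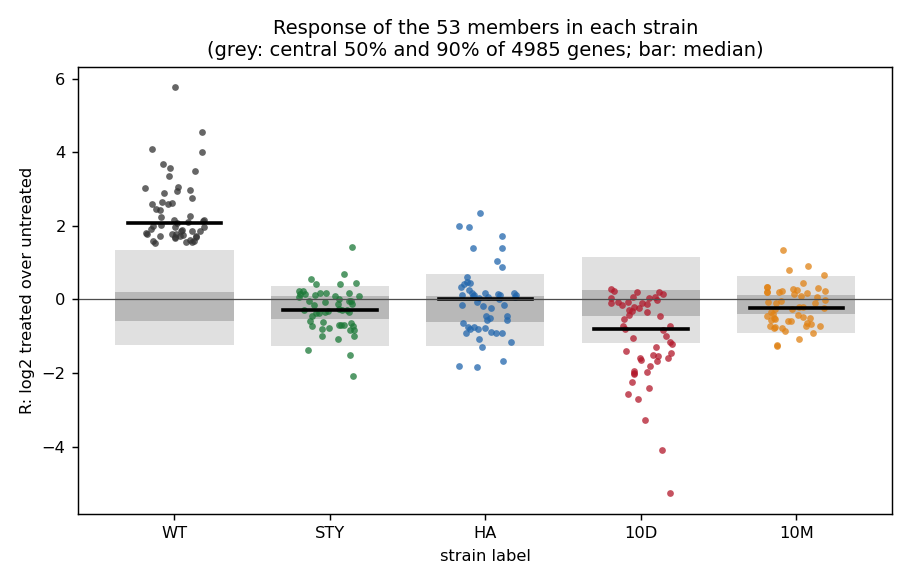
R, the log2 ratio of treated to untreated level with 1 CPM added, for each member (points) in each strain, with the median as a black bar and the central 50% and 90% of 4985 genes in grey. WT and 10D values were used to choose the members, and the medians lie at −0.28 in STY, 0.0093 in HA and −0.23 in 10M.

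The response common to STY, HA and 10M was tested with edgeR's quasi-likelihood fit of strain and treatment on their 6 libraries, in which the spread of the response between strains is the error. Of the 52 members that passed the filter on low counts, 5 rose and 9 fell at a Benjamini-Hochberg adjusted p below 0.05. Over all 5919 genes tested, 14.9% rose and 18.1% fell, against 9.62% and 17.3% of the members. The member that did not pass was eno102. The log2 change was −1.70 (SE 0.218, adjusted p = 0.00706) for SPBC725.03, −0.81 (SE 0.116, adjusted p = 0.00797) for ptc1, −0.9999 (SE 0.162, adjusted p = 0.0103) for tcb2 and −0.85 (SE 0.138, adjusted p = 0.0103) for SPCC16A11.15c. These 4 genes kept their call in edgeR when any 1 strain was left out, but without the strain term ptc1 (adjusted p = 0.18) and tcb2 (0.056) missed the threshold. Among the risers were rtc3 at 1.43 (SE 0.327, adjusted p = 0.0235), SPAC11D3.01c at 0.80 (SE 0.183, adjusted p = 0.0235) and atg101 at 0.62 (SE 0.169, adjusted p = 0.0357), and among those that fell mug143 at −1.31 (SE 0.286, adjusted p = 0.0208), mpr1 at −0.49 (SE 0.115, adjusted p = 0.0254) and smp4 at −0.71 (SE 0.19, adjusted p = 0.034). Without HA rtc3 missed the threshold (adjusted p = 0.074), and without HA or without 10M so did SPAC11D3.01c (adjusted p = 0.121 and 0.0952), atg101 (0.155 and 0.236), mug143 (0.0902 and 0.053), mpr1 (0.113 and 0.126) and smp4 (0.182 and 0.15). The other calls were pho841 and SPBPB21E7.08, which rose, and ish1 and SPCC1393.12, which fell; none of them passed without HA, and of these SPBPB21E7.08 alone passed without 10M. In all, 23 of 53 members were called without STY (2606 of 6056 genes), 4 of 53 without HA (439 of 6015) and 7 of 52 without 10M (1150 of 5898). With library totals in place of TMM factors 3 members rose and 16 fell, beside 547 and 1513 of 5919 genes. The share of rising genes among all calls moved from 45.1% to 26.6%. The 2 libraries of a strain share its label, and with no strain term in the fit 3 members were called, beside 1018 of 5919 genes.

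The resting levels of the members differed between strains. In untreated libraries the median log2 ratio to STY was −0.0077 in HA, 1.08 in 10M, 1.60 in WT and 3.046 in 10D, while over all 4985 genes each of these medians lay between −0.037 and 0.12. Of 53 members, untreated 10D was at least 2-fold above STY for 48 (background 6.38%), above HA for 50 (background 6.24%) and above 10M for 36 (background 3.61%). Untreated WT was at least 2-fold above STY for 36 (background 4.03%), above HA for 33 (background 3.43%) and above 10M for 12 (background 2.37%), and above all 3 by any margin for 37 (background 39.7%). Untreated WT and untreated 10D are the denominators of the responses that chose the members, so nothing is read from their place in the order. The order 10D, WT, 10M and then HA and STY in either order held for 31 of 53 members (background 6.26%). In untreated 10M, 30 members were at least 2-fold above STY (background 3.19%) and 23 at least 2-fold above HA (background 2.63%). Untreated 10M was above both by any margin for 45 (background 56.4%). In untreated HA, 2 were at least 2-fold above STY (background 0.502%). Several of these ratios share a library, and each is 1 library against 1.

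**Figure D5:**
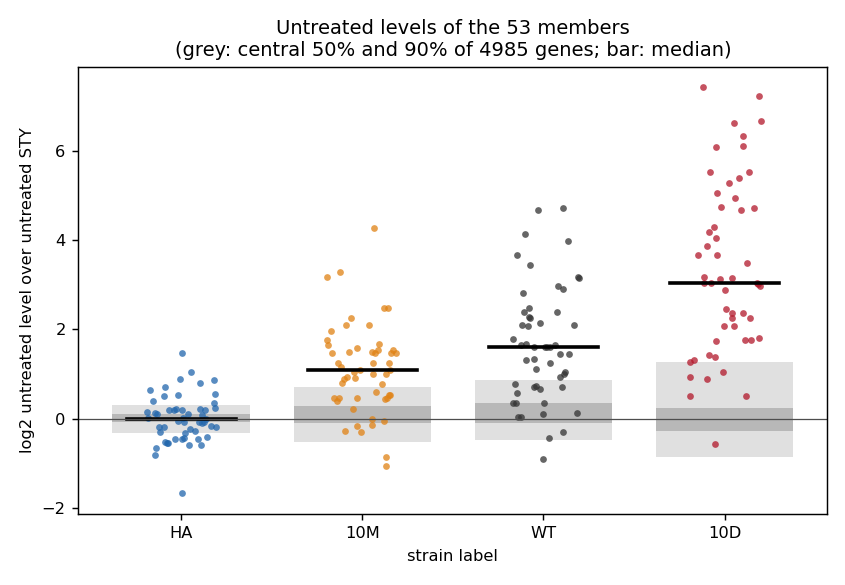
log2 ratio of the untreated level of each member in the labelled strain to its level in untreated STY, with the median as a black bar and the central 50% and 90% of 4985 genes in grey. HA lies around 0, and 10M, WT and 10D lie progressively higher for the members but not for genes in general. Untreated WT and untreated 10D entered the choice of members, so nothing is read from their place in the order.

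The same 6-library fit tested these levels in the strains that the rule did not use, over untreated and treated libraries together. The untreated and treated libraries of a strain thus stand as its replicates, and these p-values do not cover the spread between cultures or clones. The mean of HA and 10M exceeded STY for 3 members and was lower for 0, against 0.642% and 0.253% of 5919 genes tested. These were tsp0, with a log2 difference of 3.12 (SE 0.411, adjusted p = 0.03), tam11 at 1.31 (SE 0.16, adjusted p = 0.024) and SPAC9E9.04 at 1.18 (SE 0.118, adjusted p = 0.016) by edgeR. None of the 3 passed without 10M (adjusted p = 0.361, 0.113 and 0.113), where HA alone stands against STY and 1 member was called. At an unadjusted p below 0.05 edgeR had 2 members lower than in STY. Without HA, where 10M alone stands against STY, 26 members were higher, as were 170 of 6015 genes tested. DESeq2 called 17 members higher and 0 lower, beside 134 genes higher and 85 lower of 5919.

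The libraries labelled 10M were then set against the mean of STY and HA in that fit, a contrast added after the data were seen. Without HA it becomes the comparison of 10M with STY already given above, not a separate one. In edgeR the libraries labelled 10M were higher for 27 of 52 members tested and lower for 0, against 3.43% higher and 2.52% lower of all 5919 genes. At an unadjusted p below 0.05 edgeR had 0 members lower. DESeq2 called 31 members higher and 0 lower, beside 257 genes higher and 311 lower of 5919. The median log2 difference was 0.98 over the members and 0.012 over all genes. The 10 members with the lowest p in edgeR began with SPACUNK4.15 at 2.24 (SE 0.144, adjusted p = 0.0019), eis1 at 1.76 (SE 0.135, adjusted p = 0.00346), SPAC4H3.03c at 3.50 (SE 0.286, adjusted p = 0.00412), SPAC15E1.02c at 2.34 (SE 0.196, adjusted p = 0.00413) and tsp0 at 3.62 (SE 0.319, adjusted p = 0.00433). Signalling genes were among them, with srk1 at 1.22 (SE 0.12, adjusted p = 0.00543) and mpr1 at 1.05 (SE 0.117, adjusted p = 0.00742), as were mvp1 at 1.59 (SE 0.152, adjusted p = 0.00503), SPAC22F8.05 at 1.99 (SE 0.204, adjusted p = 0.00576) and SPAC9E9.04 at 0.997 (SE 0.107, adjusted p = 0.0062). All 4 signalling members passed, ptc1 at 0.99 (SE 0.118, adjusted p = 0.00948) and ppk15 at 0.53 (SE 0.108, adjusted p = 0.0447), and so did cgs1 at 1.45 (SE 0.229, adjusted p = 0.0228) and pka1 at 0.52 (SE 0.105, adjusted p = 0.0446) of the cAMP pathway. In edgeR git5 of that pathway (0.99, adjusted p = 0.0595) and the transporter gene ght2 (0.45, adjusted p = 0.328) did not pass. Without HA, 21 of the 27 still passed, and cgs1 (adjusted p = 0.0739), ish1 (0.0557), mug147 (0.0636), pka1 (0.158), ppk15 (0.175) and wwm2 (0.34) did not. Without STY, 25 of the 27 passed, all but smp4 (adjusted p = 0.0653) and tam11 (0.0925). With library totals 33 members were higher and 0 lower, beside 346 genes higher and 102 lower of 5919. The share of higher genes among all calls moved from 57.7% to 77.2%, and was 45.2% in DESeq2. HA, which stands on the lower side of this contrast, had sty1 at 122 CPM untreated and 116 treated, against 109.9 and 127 in 10M, and its atf1 transcript was the more abundant. The part of either transcript in this contrast was not tested. 10M is 1 strain with deeper libraries than STY and HA, and what depth or a strain-specific batch adds to this difference cannot be told apart from the allele.

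Members with a CRE-type core were set beside those without. The 23 with a core had a median R of 2.17 in WT and −0.99 in 10D, and the 29 without had 2.01 and −0.72. In the contrast of 10M with STY and HA, 15 of 23 with a core and 12 of 28 without were higher, against 3.43% of all genes tested. The differences between these groups were not tested.

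Lists of related genes give the setting. Over all 5919 genes tested, 14.9% rose and 18.1% fell with H2O2, and 3.43% were higher and 2.52% lower in 10M, so the counts below are to be read against those shares. Of 24 Sty1 pathway components, which hold 3 members (mpr1, ptc1 and srk1), 10 fell with H2O2 in STY, HA and 10M by edgeR (median −0.33), and 7 were higher in 10M than in STY and HA (median 0.29). Over all genes those medians were 0.00087 and 0.012. Of 26 Sty1-Atf1 stress genes, 5 are members (ddr48, ish1, rds1, srk1 and gut2) and 10 are those left out by name. In that list 7 rose and 5 fell with H2O2 (median 0.14), and 12 were higher and 3 lower in 10M (median 0.84). A list of 24 reductases and dehydrogenases held no member, with 12 rising and 2 falling, and 7 higher and 6 lower in 10M. Of 23 carbohydrate storage and carbon genes, 3 are members (gut2, SPAC4H3.03c and SPBC24C6.09c). Of its 22 tested genes, 2 rose and 3 fell, and 6 were higher and 1 lower in 10M. Its counts for H2O2 are near or below the shares over all genes.

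The thresholds cut through a continuous range. Just inside the WT threshold, by R in WT, were SPACUNK4.15 (1.55), ppk15 (1.57) and SPCC16A11.15c (1.57), and just outside were SPAC11E3.14 (1.46), efr3 (1.44) and mdh1 (1.35). Just inside the 10D threshold, by R in 10D, were SPCC320.03 (0.28), ppk15 (0.24) and SPAC9E9.04 (0.21), and just outside were pil1 (0.35), rsv2 (0.36) and SPBC428.10 (0.40). The eisosome gene pil1 thus missed the rule where eis1 and fhn1 met it.

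Only direct neighbours were looked for in the genome. No expected number of neighbours was worked out, and whether the members cluster was not tested. In the order of protein-coding genes in the RefSeq annotation, wwm3 and wwm2 are neighbours, and so are mpr1 and SPBC725.03, while wwm2 also borders ntp1 and spg4 borders tps1, both among the genes left out by name. All 53 IDs matched the annotation, 52 as protein-coding genes and SPBPB21E7.08 not. Another coding gene overlaps 14 members (ddr48, ish1, rds1, SPCC1393.12, mug143, eis1, SPAC977.17, tsp0, SPAC23C11.06c, gst3, SPAC16A10.01, SPCC320.03, SPAC13C5.04 and mpr1) and a noncoding gene 42, and because the strand setting of the counting is not given, reads of overlapping genes cannot be told apart. No other gene shared a stretch of at least 100 bases at 95% identity or more with any member.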

How the data were processed

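The deposited table holds raw counts, whole numbers of reads per gene, for 10 polyA RNA libraries. FastQC, TopHat2 2.1.1 and HTSeq are named in the submitters' processing notes; genome build, annotation, strand setting and filters are not given in the sources used here. Columns were joined to samples by the names in the sample descriptions, and no column was left out. CPM used library totals. Of 7017 IDs, 6843 matched RefSeq assembly ASM294v3, which supplied names, gene starts and sequences.

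Python 3.11.15 (pandas, SciPy 1.17.1), BLAST+ 2.17.0 and R 4.3.3 were used. edgeR 4.0.16 (filterByExpr, TMM, glmQLFit, glmQLFTest) fitted strain and treatment on the 6 libraries of STY, HA and 10M (5919 genes, 2 residual degrees of freedom), with Benjamini-Hochberg adjustment over all genes and a threshold of 0.05. Each SE was taken as |log2 change| over the root of the F statistic. Each strain gives 1 pair of libraries. For the shared H2O2 effect the p-values measure the spread of the response between these strains. For the contrasts between strains the error is the same, with the untreated and treated libraries of a strain standing as its replicates. Spread between cultures or clones of a strain is not in it. On simulated counts for the shared H2O2 effect (5956 genes) the fit recovered 72 of 100 genes changed by 1 and 100 of 100 changed by 2 on the log2 scale, with 9 false calls. Those counts had 1 fixed dispersion for all genes, and the same level and H2O2 effect in each strain. Differences between strains were not simulated, so the figures do not carry over to the real libraries.

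The members and gene lists were chosen with earlier results of these data known. Values in every library are given for the 12 members with the highest R in WT, the 4 with the lowest R in 10D, the 4 with the highest untreated 10D over untreated WT, and up to 10 called per contrast; the cAMP pathway genes, ght2 and ppk15 were added after their values were seen. Alternatives were DESeq2 1.42.0, its size factors, library totals, no filter, no strain term and each strain left out.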

Additional observations from a re-analysis of the deposited data

Results flagged for a closer look

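In 14 cases, over 10 members, a strain that the rule did not use moved at least 2-fold down (R of −1 or less) where WT moved up. These are 5 members in STY, 6 in HA and 3 in 10M, near the shares over all genes of 8.61%, 9.83% and 3.69%. Each is 1 pair of libraries, and the difference from WT was not tested. WT was selected to move up, so only the fall is free of the choice. The oxidase gene SPBC725.03 had R of −2.09 in STY, −1.80 in HA and −1.26 in 10M, against 3.57 in WT. The membrane-tether gene tcb2 had −1.29 in HA and −1.25 in 10M, and mug143 had −1.83 in HA and −1.07 in 10M. The hexose transporter gene ght2 had −1.36 in STY, the eisosome gene fhn1 −1 in STY, and the transporter gene SPBC36.01c −1.50 in STY. The G protein gene git5 had −1.14 in HA, the phosphatase gene ptc1 −1.08 in HA, the amidotransferase gene SPAC13C5.04 −1.66 in HA and SPCC16A11.15c −1.08 in STY.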

How the results depend on the processing

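The strain term works as the replicate block here, since each strain gave 1 untreated and 1 treated library. With no replicate block, calls for the shared H2O2 response fell from 1958 genes and 14 members to 1018 and 3. With 1 strain left out they ranged from 439 to 2606 genes and from 4 to 23 members. For HA and 10M over STY the main counts were 53 genes and 3 members, DESeq2 gave 219 and 17, and leaving out a strain gave 17 to 254 genes and 1 to 26 members. Without STY that contrast cannot be formed. Without HA it is the same comparison as the next contrast without HA, so that run enters both ranges. For 10M over STY and HA the main counts were 352 genes and 27 members, DESeq2 gave 568 genes, and leaving out a strain gave 254 to 705 genes and 26 to 33 members. Under DESeq2 size factors, library totals or no filter these counts stayed within 1.5 times the main ones, and no member called in a main test changed direction under any alternative run. The number of members was 50 to 63 under TMM scaling, other pseudocounts and no minimum mean, and 36 with a mean of at least 50 CPM; of 54 under TMM, 52 were shared. Without members overlapped by a coding gene it was 39. The median of untreated 10D over untreated WT ran from 1.39 to 1.61, and the median R in HA moved from 0.0093 to 0.15 under TMM scaling. A search of 500 bases found the TGACGT core in 48.1% of members and 7.99% of all genes, an alternative added after the data were seen. With 1 library per strain and treatment, no spread between cultures was measured.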
